A study of Mus musculus with 6 samples.

Results

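The circadian clock genes described here are Per1, Per2, Per3, Cry1, Cry2, Arntl, Clock, Nr1d1, Nr1d2 and Dbp, 10 genes taken by name from a table of 54532. All 10 passed the filter on low values, 0.5 FPKM or more on average (reads scaled to gene length and to the size of the library), which 15694 genes passed. RNA came from the cerebral cortex of mice, all aged 12 months, in 3 libraries labelled Fam69c KO (also written Fam69c-/- in the design) and 3 labelled WT. The protein of Fam69c is a kinase-like one that cells make in the endoplasmic reticulum. The labels name no promoter, allele, strain or treatment, and they give neither the hour of collection nor a light cycle. Nothing in them states whether 1 mouse gave 1 library, and p-values and intervals therefore cover only the spread among these libraries.

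The circadian clock is a loop of transcription that nearly every cell of the body runs with a period of about a day. The proteins of Arntl (BMAL1) and Clock pair on E-box elements and switch on the Per and Cry genes, whose proteins return to the nucleus and block the pair. In a second loop the nuclear receptors made by Nr1d1 and Nr1d2 (REV-ERBα and REV-ERBβ) repress Arntl, and Dbp carries the rhythm to other genes through D-box elements. In cortex many of these RNAs cycle with the time of day, though not all to the same degree, and Per1 also responds to neuronal activity and to cyclic AMP.

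Promoter windows of RefSeq (build GRCm38.p6, from 250 bases before to 50 bases after a transcript start) were matched by symbol for 9 of the 10 genes, 13 windows in all; Per2 had none. They were searched on both strands for an E-box (CACGTG), a variant E-box (CACGTT), a D-box (TTATGTAA or TTATGCAA), a REV-ERB and ROR core site (AGGTCA, which also lies within the longer form searched, TAGGTCA) and a cyclic AMP response element (TGACGTCA). Of all 32851 windows in the table, 7.15% held the E-box, 4.68% the variant E-box, 1.66% the D-box, 16.3% the core site, 2.61% its longer form and 1.79% the cyclic AMP element. Shown here are the Per1, Per3 and Cry1 stretches, the windows with more than 1 match, and the site of Arntl, the gene that REV-ERB proteins repress; capitals mark the matches.
Per1, first start, chr11:69098699-69098948, plus strand, within the longer Per1 gene model: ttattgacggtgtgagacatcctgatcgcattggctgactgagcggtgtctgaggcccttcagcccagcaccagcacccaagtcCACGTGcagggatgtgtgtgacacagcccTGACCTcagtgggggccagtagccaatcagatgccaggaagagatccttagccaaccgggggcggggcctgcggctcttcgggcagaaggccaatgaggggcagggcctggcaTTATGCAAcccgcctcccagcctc
Per3, chr4:151044666-151044915, minus strand, inside an intron of Camta1: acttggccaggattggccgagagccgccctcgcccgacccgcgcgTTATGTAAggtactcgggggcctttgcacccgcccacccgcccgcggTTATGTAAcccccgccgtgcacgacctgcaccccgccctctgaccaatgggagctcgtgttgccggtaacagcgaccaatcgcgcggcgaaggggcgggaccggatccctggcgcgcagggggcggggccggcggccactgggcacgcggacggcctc
Cry1, chr10:85185055-85185304, minus strand, with 10 bases in a Cry1 exon of GENCODE M21: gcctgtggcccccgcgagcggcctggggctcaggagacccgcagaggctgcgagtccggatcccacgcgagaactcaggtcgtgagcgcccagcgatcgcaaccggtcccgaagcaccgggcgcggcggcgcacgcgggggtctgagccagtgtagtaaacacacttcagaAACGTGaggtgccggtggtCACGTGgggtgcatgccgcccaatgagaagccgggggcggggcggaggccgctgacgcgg
Arntl, 30 exon bases past its second start, chr7:113207529-113207558, plus strand: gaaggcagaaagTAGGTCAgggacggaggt

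The Per1 stretch holds an E-box, a core site on the other strand and a D-box that ends 17 bases before the start. Per3 has 2 D-boxes, and Cry1 an E-box with a variant E-box beside it. In Arntl the longer form begins 31 bases after the second start. Nr1d1 and Cry2 held 1 variant E-box each, Nr1d2 and the third start of Clock 1 core site each, and none of the 13 windows held the cyclic AMP element. The window of Dbp held none of these letters, nor did the second start of Per1, the first start of Arntl or the first and second starts of Clock, which says only that the letters are not in these windows. Such matches describe the sequence and are not sites shown to be bound.

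**Figure D1:**
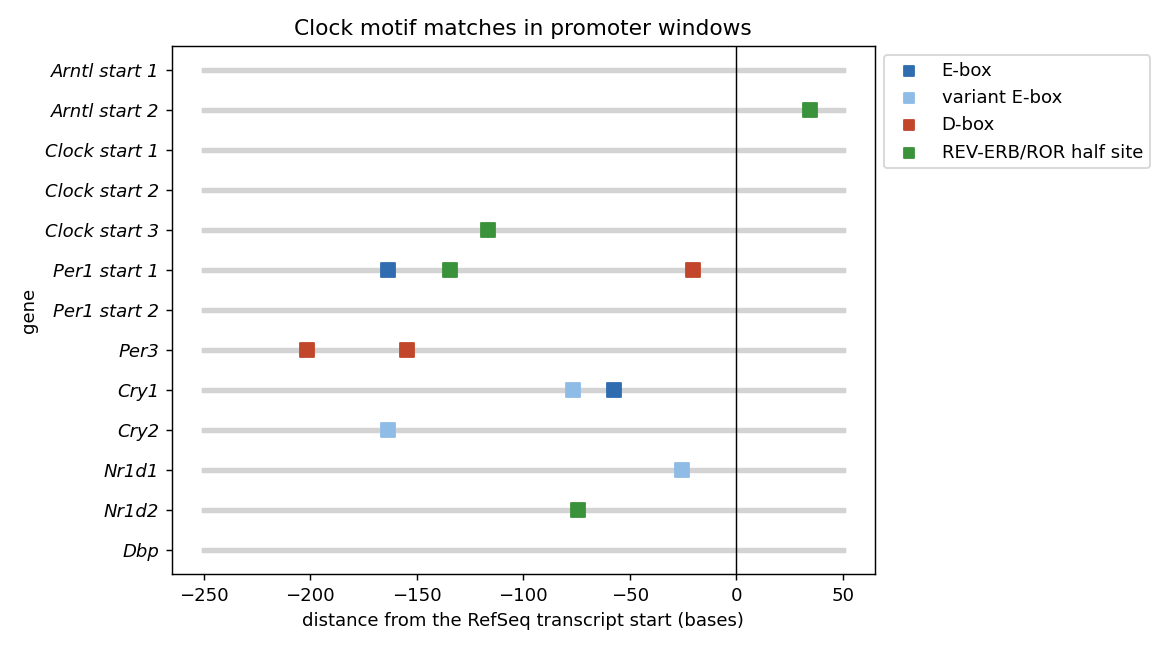
Motif matches in 13 promoter windows of 9 clock genes, by distance from the RefSeq transcript start in bases (squares, one per match, coloured by motif; grey lines are the windows searched). Per1, Per3 and Cry1 hold more than 1 match in a window, and Dbp holds none.

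Reads assigned to genes, recovered from the values, summed to between 30935326 and 35065884 a library, and the clock genes had 607 to 6051 reads in a library. The RNA of Fam69c did not separate the labels, with 1.54, 1.84 and 1.42 FPKM in the libraries labelled KO and 2.03, 1.57 and 2.08 FPKM in WT, so all directions here follow the labels alone. The libraries differed in striatum markers, a list of 12 genes that summed to 225, 434 and 377 FPKM in the libraries labelled KO and to 473, 487 and 164 FPKM in WT. Replicate 1 labelled KO and WT replicate 3 are thus the low ones, and in bulk RNA fewer cells of a type and less RNA per cell cannot be told apart. In sum, 5 excitatory neuron genes of the cortex were even, at 798 to 832 FPKM labelled KO and 798 to 842 FPKM in WT. For 1 of the 5, Neurod6, the groups did not overlap, as for 8.87% of all genes tested. Neurod6 had 34.1, 36.3 and 34.8 FPKM labelled KO and 31.1, 33.5 and 31.4 FPKM in WT (limma adjusted p = 0.999). Of 6 markers of the suprachiasmatic nucleus, the master clock of the hypothalamus, Six6, Lhx1, Nms and Prok2 were at or near 0, with at most 0.0923 FPKM, and Avp had 0.358 to 0.888 FPKM. Vip, which interneurons of the cortex also express, had 11.8 to 15.7 FPKM, so that the list summed to 13.2 to 14.8 FPKM labelled KO and 12.3 to 16.6 FPKM in WT.

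Per length of gene model, Nr1d1 had the highest level of the 10, with a mean of 43.1 FPKM over the 6 libraries, and Per3 the lowest, with 4.92 FPKM. Between them stood Cry2 (26.7 FPKM), Per1 (20.7), Nr1d2 (19.2), Dbp (15.1), Clock (6.81), Per2 (6.20), Cry1 (6.18) and Arntl (6.13). Nr1d1 exceeded Cry2 in 6 of 6 libraries, Nr1d2 exceeded Dbp in 6, and Dbp exceeded Clock in 6. Cry2 exceeded Per1 in 5 libraries and Arntl exceeded Per3 in 5, WT replicate 3 being the exception in both. The neighbours Per1 and Nr1d2, Per2 and Cry1, and Cry1 and Arntl changed places, each first gene being the higher in 3 of 6 libraries, and Clock exceeded Per2 in 4, so these pairs do not differ beyond their spread.

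**Figure D2:**
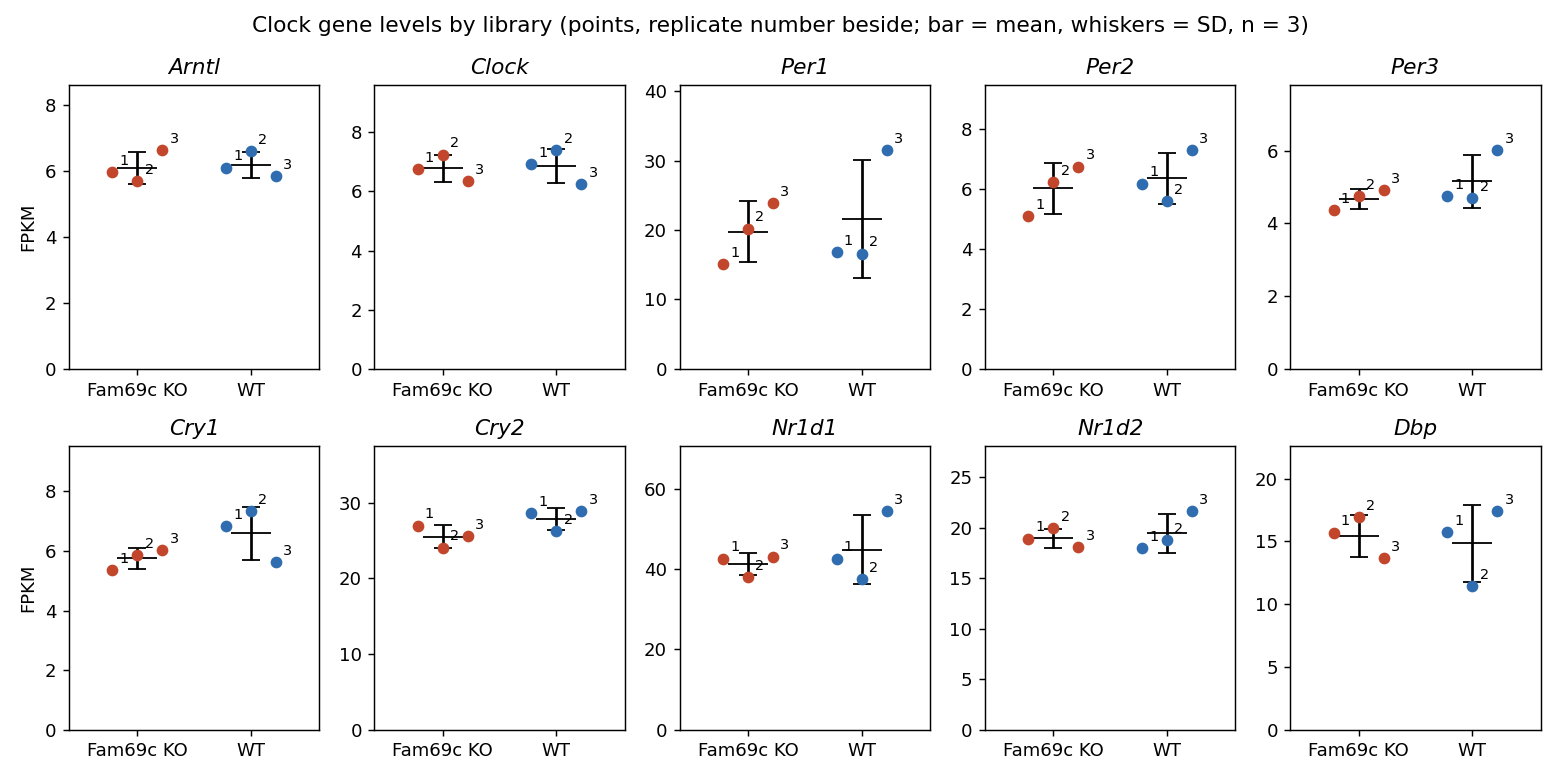
FPKM of the 10 clock genes in each library (points, with the replicate number beside them), libraries labelled Fam69c KO on the left of each panel and WT on the right, bars at the mean and whiskers of 1 SD (n = 3 each). The groups overlap for all 10 genes, and the WT point that stands highest for Per1, at 31.5 FPKM, and for Nr1d1, at 54.4 FPKM, is replicate 3.

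Whether loss of Fam69c goes with another level of clock RNA was tested for each gene in 1 fit over all 15694 genes (limma on log2(FPKM + 0.5), the scale of every fold change given). Of the 10 clock genes 0 passed an adjusted p of 0.05, 0 had an unadjusted p under 0.05, and 0 had groups that do not overlap. Over all genes 0% (0 genes) passed, 3.82% (599) had an unadjusted p under 0.05, made up of 1.63% higher and 2.19% lower labelled KO, and 8.87% (1392) had groups that do not overlap, made up of 4.17% higher and 4.7% lower. With voom on the recovered reads, 0 clock genes and 0 genes in all passed. Log2 fold changes of the clock genes, labelled KO over WT, ran from -0.18 to 0.07 with a median of -0.08, and 9 of 10 were below 0, where 52% of all genes were and the median over all genes was -0.0042. That count rests on 1 library, since without WT replicate 3 the clock genes below 0 were 5 of 10, where 51.8% of all genes were, and their median was 0.0043. Their adjusted p was 0.999 each (limma, Benjamini-Hochberg). The 95% intervals reached from 0.15 to 0.64 log2 units to either side, with a median of 0.24 against 0.21 for all genes tested. They are not adjusted for the number of genes, so these widths are not the limit of detection at the adjusted threshold. Differences larger than the interval could also miss that threshold with 3 libraries a group, as those of Usp2 and Plin4, described below, did. The tests therefore do not exclude larger changes of the clock genes than these widths.

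Arntl and Clock, the activators, were the steadiest of the 10. Arntl (ENSMUSG00000055116, mm10 chromosome 7, 113207465 to 113314126, plus strand) had 5.96, 5.68 and 6.61 FPKM in the libraries labelled KO, against 6.10, 6.60 and 5.84 FPKM in WT. The values interleave, with the highest and the lowest of the 6 both labelled KO, and the log2 fold change of Arntl was -0.02 (95% interval -0.20 to 0.16). Clock (ENSMUSG00000029238, chromosome 5, 76209868 to 76304792, minus strand) had 6.74, 7.24 and 6.34 FPKM labelled KO and 6.91, 7.38 and 6.26 FPKM in WT. Replicate 2 was the highest and replicate 3 the lowest in both groups, and the log2 fold change was -0.01 (interval -0.20 to 0.17). Both signs depend on single libraries: Arntl stood at 0.024 without WT replicate 2 and at 0.023 without replicate 2 labelled KO, and Clock at 0.038 without WT replicate 2 and at 0.029 without replicate 3 labelled KO. On TPM the median of all genes moved to 0.017 and Clock moved with it, to 0.0066. Clock read 1.12 ± 0.158 times the level of Arntl in the libraries labelled KO and 1.11 ± 0.0321 times in WT (SD, n = 3 each).

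Among the Per genes, whose proteins form the repressor complex with the cryptochromes, Per1 varied most. Per1 (ENSMUSG00000020893, chromosome 11, 69095217 to 69109960, plus strand) had 15.1, 20.2 and 23.9 FPKM in the libraries labelled KO and 16.8, 16.6 and 31.5 FPKM in WT. WT replicate 3 is the highest of the 6 and replicate 1 labelled KO the lowest, so the groups overlap, with means of 19.7 ± 4.38 FPKM labelled KO and 21.6 ± 8.51 FPKM in WT (SD, n = 3 each). The log2 fold change of Per1 was -0.09 (standard error 0.27, 95% interval -0.73 to 0.55). Its sign rests on those libraries, since it was 0.21 without WT replicate 3, 0.09 without replicate 1 labelled KO and 0.38 without both. The interval without both ran from 0.16 to 0.61 (limma adjusted p = 0.254). The libraries left out hold the highest and the lowest Per1 value, so this interval and p do not measure the uncertainty of the difference. In that fit of 4 libraries 13.3% of all genes had an unadjusted p under 0.05, as Per1 and Cry1 did, and 0.00637% passed, with no clock gene among them.

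Per2 (ENSMUSG00000055866, chromosome 1, 91415982 to 91459324, minus strand) had 5.10, 6.25 and 6.76 FPKM labelled KO and 6.19, 5.60 and 7.30 FPKM in WT. The extremes were again WT replicate 3 and replicate 1 labelled KO. Its log2 fold change was -0.07 (interval -0.37 to 0.23), 0.025 without WT replicate 3 and 0.036 without replicate 1 labelled KO. Per3, the member of the family least needed for rhythm in mice (ENSMUSG00000028957, chromosome 4, 151003652 to 151044665, minus strand), had 4.37, 4.75 and 4.91 FPKM labelled KO and 4.76, 4.70 and 6.003 FPKM in WT. Apart from WT replicate 3 its 5 other values lie between 4.37 and 4.91 FPKM, and its log2 fold change was -0.12 (interval -0.36 to 0.12), or -0.016 without that library.

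The cryptochromes, the stronger repressors of the activator pair, were the members whose lower values labelled KO kept their sign in every alternative fit. Fits that change only a filter, the variance trend or the replicate block cannot move a fold change, and all fits reuse the same libraries. Cry1 (ENSMUSG00000020038, chromosome 10, 85131700 to 85185064, minus strand) had 5.36, 5.87 and 6.04 FPKM in the libraries labelled KO and 6.84, 7.34 and 5.61 FPKM in WT. WT replicates 1 and 2 lie above all 3 libraries labelled KO, and WT replicate 3 lies among them. The log2 fold change of Cry1, the largest in size of the 10, was -0.18 (standard error 0.10, interval -0.42 to 0.06, limma adjusted p = 0.999), and it was -0.28 without WT replicate 3 (interval -0.46 to -0.10, limma adjusted p = 0.728). The library left out holds the WT value that lies among those labelled KO, so that interval and p do not measure the uncertainty of the difference. In that fit 6.52% of all genes had an unadjusted p under 0.05, as Cry1 did. Over 17 alternative fits the log2 fold change of Cry1 ran from -0.28 to -0.10 and passed in none.

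Cry2 (ENSMUSG00000068742, chromosome 2, 92403646 to 92434043, minus strand) had 27.0, 24.05 and 25.5 FPKM labelled KO and 28.6, 26.2 and 28.9 FPKM in WT. Only replicate 1 labelled KO, above WT replicate 2, makes the groups overlap. Its log2 fold change was -0.13 (interval -0.27 to 0.02, limma adjusted p = 0.999) and ran from -0.17 to -0.08 over the same 17 fits. A gene on the other strand, D930015M05Rik, shares 295 of the 6320 exon bases of Cry2 in GENCODE M21, and since the sources used here do not give how strand was handled, reads there may not be separated. Cry2 stood at 4.45 ± 0.505 times Cry1 in the libraries labelled KO and 4.30 ± 0.790 times in WT (SD, n = 3 each), a ratio within each library that does not depend on scaling.

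Nr1d1, which encodes the main repressor of the second loop, had the highest level of the set. Nr1d1 (ENSMUSG00000020889, chromosome 11, 98767932 to 98775333, minus strand) had 42.6, 38.1 and 43.1 FPKM labelled KO and 42.6, 37.5 and 54.4 FPKM in WT. Without the high WT replicate 3 the other 5 lie between 37.5 and 43.1 FPKM, and the log2 fold change of -0.10 (interval -0.42 to 0.21) becomes 0.043. Its exons overlap those of Thra, a thyroid hormone receptor gene on the other strand, over 263 of 3077 exon bases. Thra had 112, 123 and 115 FPKM labelled KO and 132, 126 and 122 FPKM in WT, and the part of shared reads in Nr1d1 was not tested.

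Nr1d2 (ENSMUSG00000021775, chromosome 14, 18204054 to 18239127, minus strand), the paralog of Nr1d1, had 18.9, 20.0 and 18.1 FPKM labelled KO and 18.0, 18.8 and 21.7 FPKM in WT. The range was narrow, 1.21-fold from lowest to highest, with WT replicate 3 again on top. Its log2 fold change was -0.03 (interval -0.22 to 0.16), 0.046 without WT replicate 3 and 0.0033 without replicate 3 labelled KO.

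Dbp was the member whose mean was higher labelled KO. Dbp (ENSMUSG00000059824, chromosome 7, 45705088 to 45710203, plus strand) had 15.7, 17.0 and 13.6 FPKM in the libraries labelled KO and 15.7, 11.4 and 17.4 FPKM in WT. Here WT replicate 2 is the library that stands low, while the other 5 lie between 13.6 and 17.4 FPKM. The log2 fold change of Dbp was 0.07 (interval -0.30 to 0.44), -0.10 without WT replicate 2 and 0.19 without WT replicate 3. Sphk2 on the other strand shares 539 of the 2993 exon bases of Dbp, and it had 7.72, 7.17 and 7.83 FPKM labelled KO and 7.23, 7.39 and 6.97 FPKM in WT.

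**Figure D3:**
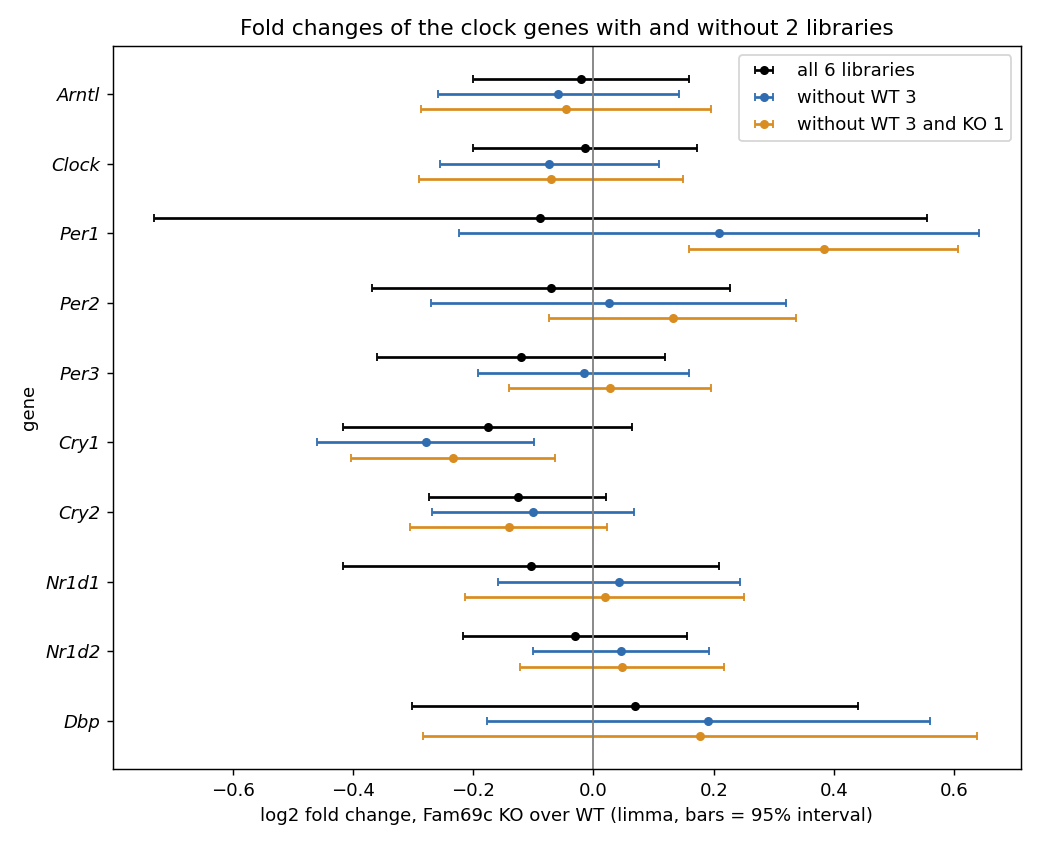
Log2 fold changes of the 10 clock genes, labelled Fam69c KO over WT, with 95% intervals from limma, in all 6 libraries (black), without WT replicate 3 (blue) and without both WT replicate 3 and replicate 1 labelled KO (orange). With all 6 libraries every interval spans 0, and Per1 moves from -0.09 to 0.38 as the libraries are left out while Cry1 stays between -0.28 and -0.18. The libraries left out hold the highest and the lowest Per1 value, so its orange interval does not measure the uncertainty of the difference. Nor do the blue and orange intervals of Cry1, since WT replicate 3 holds its WT value that lies among those labelled KO.

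Single libraries stood out more than either genotype did. WT replicate 3 held the highest value of the 6 for 7 of the 10 clock genes: Per1, Per2, Per3, Cry2, Nr1d1, Nr1d2 and Dbp. Over all genes tested, 19.7% were highest in that library. The same library held the lowest value for Clock. Relative to the median of the other 5 libraries, WT replicate 3 stood at 1.87 times for Per1, 1.28 times for Nr1d1, 1.26 times for Per3, 1.18 times for Per2, 1.15 times for Nr1d2, 1.11 times for Dbp and 1.10 times for Cry2. For Arntl it stood at 0.957 times, for Cry1 at 0.930 times and for Clock at 0.905 times. The genes that stood high in it are thus the Per, Nr1d and Dbp genes with Cry2, and those that stood lower are Arntl, Clock and Cry1. Of the other activators, which are not among the 10, Npas2 stood at 0.878 times and Arntl2 at 1.25 times, so the activators did not go one way.

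Replicate 1 labelled KO held the lowest value for 4 clock genes, Per1, Per2, Per3 and Cry1, where 16.4% of all genes were lowest there. WT replicate 2 held the lowest Nr1d1 and Dbp and the highest Clock and Cry1. Ratios to Arntl within a library do not depend on scaling. In those given here WT replicate 2, not replicate 1 labelled KO, is the lowest of the 6 libraries. Nr1d1 stood at 7.15, 6.71 and 6.52 times Arntl in the libraries labelled KO and at 6.99, 5.69 and 9.33 times in WT. For Dbp the ratios to Arntl were 2.63, 2.98 and 2.06 labelled KO and 2.58, 1.73 and 2.98 in WT. Per3 stood at 0.734, 0.836 and 0.743 times Arntl labelled KO and at 0.780, 0.713 and 1.03 times in WT, and Per2 at 0.856, 1.10 and 1.02 times labelled KO and at 1.01, 0.848 and 1.250 times in WT. In all 4 ratios the WT libraries span the wider range, with replicate 2 lowest and replicate 3 highest of the group.

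**Figure D4:**
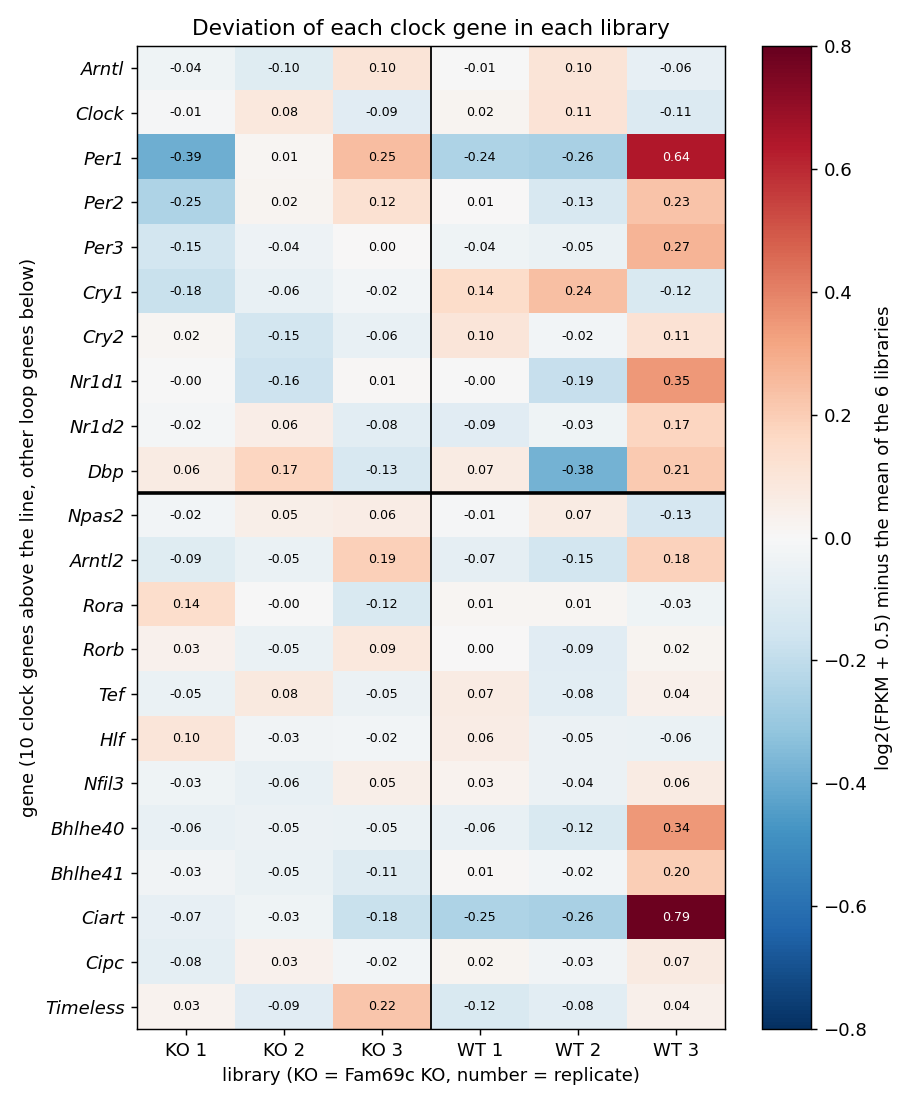
Deviation of log2(FPKM + 0.5) from the mean of the 6 libraries for the 10 clock genes (above the line) and 12 other genes of the loops (below it), libraries labelled KO on the left and WT on the right. WT replicate 3 holds the strongest positive values, 0.64 for Per1 and 0.79 for Ciart. It holds negative values for Arntl, Clock, Cry1, Npas2, Hlf and Rora but not for Arntl2, at 0.18.

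Measured by the SD of log2(FPKM + 0.5) over the 6 libraries, Per1 (0.388) varied more than 94.1% of all genes tested, Dbp (0.220) more than 83.8%, Nr1d1 (0.190) more than 79.0% and Per2 (0.171) more than 74.9%. Cry1 and Per3 stood above 72.3% and 65.9% of genes. Nr1d2, Cry2, Clock and Arntl stood above 44.4%, 43.7%, 38.8% and 34.4%, so these 4 varied less than the middle gene. The measure takes in counting error, which is larger in genes with few reads, and the clock genes had 607 reads or more in every library.

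The spread of Per1 over the libraries was set beside that of other gene groups. The 12 immediate early genes fixed as a list, which neurons transcribe within minutes of activity, had mean deviations of -0.31, -0.14 and 0.03 log2 units in the libraries labelled KO and -0.18, 0.03 and 0.57 in WT, and Per1 had -0.39, 0.01 and 0.25 labelled KO and -0.24, -0.26 and 0.64 in WT. Both were highest in WT replicate 3 and lowest in replicate 1 labelled KO, but they parted in WT replicate 2, at -0.26 for Per1 and 0.03 for the list. Arc, a synaptic gene of this list, had 102, 122 and 181 FPKM labelled KO and 112, 125 and 252 FPKM in WT, and Nr4a1, a nuclear receptor gene of the list, 39.1, 43.6 and 54.3 FPKM labelled KO and 37.4, 41.1 and 77.0 FPKM in WT (both chosen after their values were seen). Of the 12 genes 0 passed in limma, 1 had an unadjusted p under 0.05 (3.82% of all genes did), and the median log2 fold change was -0.32, or -0.093 without WT replicate 3.

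The 12 striatum markers had a mean deviation of -0.57 in replicate 1 labelled KO, the library lowest in Per1, and of -1.02 in WT replicate 3, the library highest in Per1. In the other 4 libraries they lay between 0.20 and 0.52. Glucocorticoid-induced genes, which share hormone control with Per1, had mean deviations between -0.10 and 0.14 log2 units over the 6 libraries, with 0 of 11 past the threshold in limma and 2 at an unadjusted p under 0.05, which 3.82% of all genes had. The groups did not overlap for 2 higher and 3 lower of the 11, against 8.87% of all genes in either direction. Plin4, a lipid droplet gene with the smallest p of that list, had 0.950, 1.05 and 0.686 FPKM labelled KO and 1.97, 2.31 and 1.66 FPKM in WT. The groups of Plin4 do not overlap, and its log2 fold change was -0.83 (interval -1.18 to -0.48, limma adjusted p = 0.999). Oligodendrocyte markers stood at 0.25 in replicate 1 labelled KO and at -0.24 in WT replicate 3, their extremes. The part of these groups in the clock gene values was not tested.

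**Figure D5:**
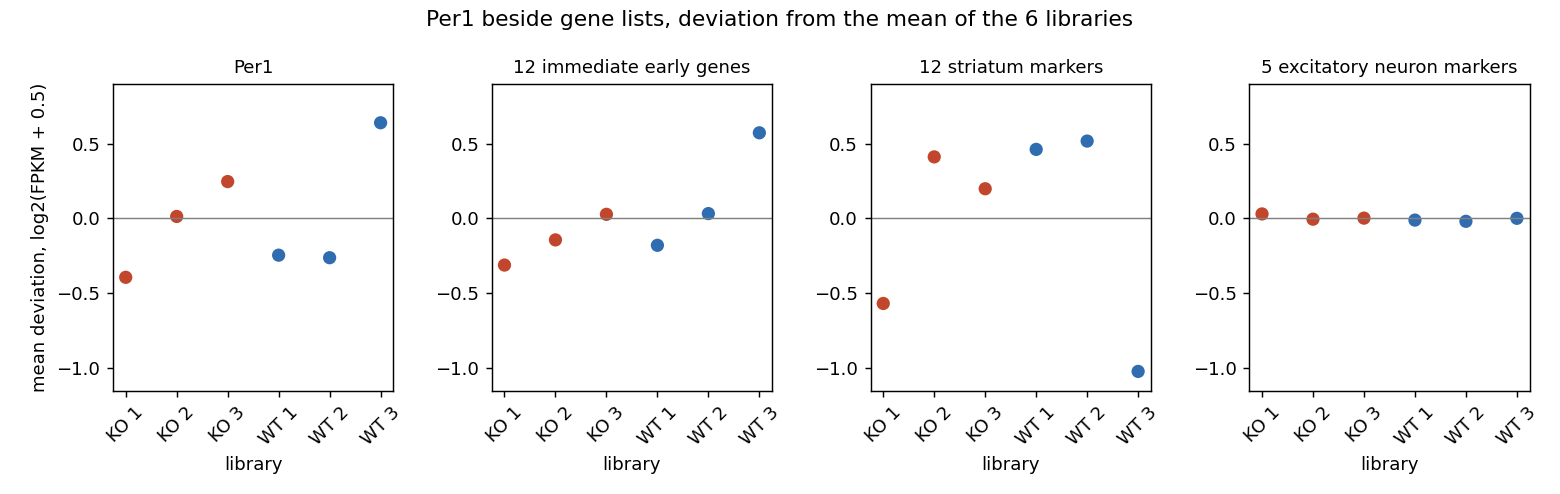
Deviation from the mean of the 6 libraries, in log2(FPKM + 0.5), of Per1 and of the mean over 12 immediate early genes, 12 striatum markers and 5 excitatory neuron markers (points, 1 per library, labelled KO in red and WT in blue). Per1 and the immediate early genes are highest in WT 3 and lowest in KO 1, striatum markers are low in both of those libraries, and excitatory neuron markers lie within 0.03 of 0.

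Of 34 other genes of the clock in 8 lists by role, 33 were tested and 0 passed in limma, 16 with a log2 fold change above 0 and 17 below, with a median of -0.0024. Unadjusted p was under 0.05 for 2 of the 33, where 3.82% of all genes had it, and the groups did not overlap for 1 higher and 2 lower, where 8.87% of all genes did so. Both counts are near those shares, and the genes named next are a description. Usp2, a ubiquitin-specific protease whose RNA is rhythmic in many tissues, was lower without overlap, with 14.5, 13.3 and 13.1 FPKM labelled KO and 15.4, 15.7 and 16.7 FPKM in WT. All 3 values labelled KO lie below all 3 of WT, with a log2 fold change of -0.22 (interval -0.36 to -0.08, limma adjusted p = 0.999). It ran from -0.26 to -0.18 over 17 alternative fits. Bhlhe41 (DEC2), a repressor that binds E-boxes, was the other lower gene, at 4.33, 4.24 and 4.08 FPKM labelled KO and 4.45, 4.34 and 5.15 FPKM in WT. Fbxl21, a cryptochrome ubiquitin ligase component, had 0.972, 1.09 and 1.16 FPKM labelled KO and 0.841, 0.897 and 0.597 FPKM in WT, with a log2 fold change of 0.31 (interval -0.0041 to 0.62) from 95 to 200 reads a library. Over 16 alternative fits Fbxl21 ran from 0.20 without WT replicate 3 to 0.50 with voom on reads, and a pseudocount of 0.1 gave 0.43, since the one of 0.5 shrinks the fold of a gene near 1 FPKM.

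Relatives of the activators and of Dbp overlapped between the groups. Arntl2, the paralog of Arntl, had 1.76, 1.83 and 2.26 FPKM labelled KO and 1.79, 1.68 and 2.24 FPKM in WT, replicate 3 being highest in both groups, and its SD over the libraries exceeded that of 68.3% of genes. Npas2, which can stand in for Clock in the forebrain, had 12.2, 12.9 and 13.0 FPKM labelled KO and 12.3, 13.1 and 11.3 FPKM in WT. Per length of gene model it was thus higher than Clock in all 6 libraries. In reads Clock was the higher, with 2849 to 3315 a library against 1793 to 2225 for Npas2. Tef and Hlf, which bind the same D-box as Dbp, had means of 44.1 ± 2.31 and 37.1 ± 1.85 FPKM labelled KO and 44.7 ± 2.45 and 36.4 ± 1.67 FPKM in WT (SD, n = 3 each), both above the 15.1 FPKM of Dbp over all libraries. Nfil3, a repressor of D-box genes, had 6.61 ± 0.273 FPKM labelled KO and 6.76 ± 0.275 FPKM in WT. Rora and Rorb, whose proteins activate where REV-ERB proteins repress, had 5.59 and 5.23 FPKM labelled KO and 5.55 and 5.06 FPKM in WT. The casein kinase gene Csnk1d, which acts on PER proteins, had 28.6 FPKM in both groups, and Csnk1e 16.0 FPKM labelled KO and 15.6 FPKM in WT.

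Ciart, a repressor of the activator pair that is itself driven by E-boxes, had 4.01, 4.11 and 3.67 FPKM labelled KO and 3.47, 3.44 and 7.64 FPKM in WT. WT replicate 3 stood at 2.08 times the median of the other libraries, above the 1.87 times of Per1, and the log2 fold change of -0.19 became 0.16 without it. Bhlhe40 (DEC1) had 28.9, 29.2 and 29.1 FPKM labelled KO and 28.9, 27.6 and 38.4 FPKM in WT, 5 of its 6 values lying between 27.6 and 29.2 FPKM. The cold-inducible RNA-binding protein genes Rbm3 and Cirbp, which follow body temperature through the day, had log2 fold changes of -0.37 (interval -0.70 to -0.04, limma adjusted p = 0.999) and -0.27 (interval -0.61 to 0.06). Srsf5, the other gene of their list, stood at -0.05 (interval -0.32 to 0.21). Rbm3 had 8.92, 7.47 and 7.30 FPKM labelled KO and 9.76, 8.88 and 12.8 FPKM in WT, and Cirbp had 23.5, 18.0 and 15.8 FPKM labelled KO and 22.04, 21.5 and 25.3 FPKM in WT. In both the lowest 2 are labelled KO and the highest is WT replicate 3, and replicate 1 labelled KO lies among the WT values; without WT replicate 3 they were at -0.23 and -0.20. Cirbp moved further without replicate 1 labelled KO, to -0.43 (interval -0.66 to -0.19, limma adjusted p = 0.797), and without replicate 3 labelled KO, to -0.15. Replicate 1 labelled KO holds the Cirbp value that lies among those of WT, so the interval and p without it do not measure the uncertainty of the difference.

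Patterns nearest to Dbp and to Arntl were looked for among 13483 other genes averaging 1 FPKM or more, by the mean absolute difference of the 2 genes' deviations over the 6 libraries. For Dbp, whose own mean deviation was 0.170 log2 units, they were Gm49163 (0.0499), Zfp58 (0.0558), H1fx (0.0655), Atg9b (0.0698) and Emp3 (0.0722). Gm49163, an antisense transcript by its annotation, had 5.02, 5.83 and 4.79 FPKM labelled KO and 5.27, 3.60 and 6.29 FPKM in WT, low in WT replicate 2 as Dbp was. For Arntl, with 0.0681 of its own, they were C87436 (0.0198), Sh3yl1 (0.0211), Zfp383 (0.0222), Polr3c (0.0229) and Rfwd3 (0.0248). None of these 10 is in the lists of clock genes. For Per1, a search added after the values were seen, the 5 nearest were Mir5125, Kdm6b, Cdc25b, Tmem150a and Adamts10, at 0.0478 to 0.0781. Of 7 genes looked up in the same order for Per1, Nr4a1 came at place 9, Klf10 at 40, Arc at 80, Ciart at 237, Per2 at 380, Per3 at 1033 and Nr1d1 at 1371. For Dbp the same 7 ran from place 2762, Nr1d1, to place 13174, Arc.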

How the data were processed

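The authors deposited 1 table of FPKM values per gene and library, which fits no count test, so limma was used as the design set out for that case. Bowtie and mm10 are named in the submitters' processing notes, without a version, while the sources used here name no counter, annotation release or handling of strand. Libraries were made with an Illumina TruSeq RNA kit from Trizol-extracted RNA, per the labels' protocols. FPKM times gene length was a whole multiple of 1 step per library, within 0.001, for 100% of values above 0, which gave the reads.

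From these values, log2(FPKM + 0.5) of genes averaging 0.5 FPKM or more was fitted with limma 3.58.1 in R 4.3.3, labelled KO against WT, with a variance trend, two-sided, Benjamini-Hochberg over 15694 genes, threshold 0.05. Intervals are 95% and cover the spread between libraries. The fit was tested on simulated data. An exact permutation test of 3 against 3 cannot go below p = 0.1 and was not used. Every pair of libraries differed by more than sampling noise. Gene positions of all 10 members equal those of GENCODE M21 (GRCm38, mm10).

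The members and lists were chosen with earlier results of these data known. All members were named, any gene of the 8 clock lists, up to 4 genes with the smallest p of each other list, and the 5 nearest patterns of Dbp and Arntl. Arc, Nr4a1, the 5 genes nearest to Per1, the overlapping genes Thra, Sphk2 and D930015M05Rik, Fam69c, Gm47283 and 5 untested markers (Six6, Lhx1, Nms, Prok2 and Avp) fall outside this rule. Alternatives were pseudocounts, filters, scalings, variance settings, sample weights, voom, a block and leaving out libraries. Plots were drawn with matplotlib 3.10.9.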

Additional observations from a re-analysis of the deposited data

How the results depend on the processing

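Over 17 alternative fits 0 clock genes passed, and 149 of 170 log2 fold changes kept their sign. Changes of the filter, the variance trend or the replicate block cannot move a fold change, so those signs were fixed in advance. All fits reuse the same libraries, so the count is no measure of how certain a direction is. Cry1 and Cry2 were below 0 in all 17, Cry1 at -0.28 to -0.10 and Cry2 at -0.17 to -0.08. Leaving out 1 library at a time gave -0.24 to 0.21 for Per1, -0.15 to 0.036 for Per2, -0.22 to 0.043 for Nr1d1, -0.085 to 0.046 for Nr1d2, -0.078 to 0.024 for Arntl, -0.073 to 0.038 for Clock and -0.10 to 0.19 for Dbp, so the sign of these 7 turned, and -0.18 to -0.016 for Per3 and -0.13 to 0.0043 for the median of the 10. Without both WT replicate 3 and replicate 1 labelled KO, Per1 was at 0.38, Per2 at 0.13, Per3 at 0.027, Nr1d1 at 0.018, Nr1d2 at 0.047 and the median of the 10 at 0.023, and 1 gene of all passed, Gm47283, which is no clock gene. With sample weights Per1 turned to 0.13, Per2 to 0.013 and Nr1d2 to 0.043, and on TPM Clock was at 0.0066, as the median of all genes moved from -0.0042 to 0.017. The cause was not tested beyond the values of those libraries.

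Unadjusted p under 0.05 held for 599 of all genes, for 426 to 1023 without 1 library, 1214 with no filter, 1420 with sample weights and 2092 without both libraries. Among the clock genes the count was 0, with 0 to 1 without 1 library, 2 with sample weights (Cry1 and Cry2), 1 with the replicate block (Cry2) and 2 without both libraries (Per1 and Cry1). Whether replicate numbers pair the libraries was not settled. Deviations of same-numbered libraries correlated at 0.0816, 0.0135 and 0.210 over genes, the last being the highest of any KO and WT pair. Replicate 1 labelled KO correlated best with WT replicate 2, at 0.113. With the replicate block 0 genes passed. With 3 libraries a group the spread between them sets the intervals.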
